A study of Mus musculus with 4 samples.

Results

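The RNA polymerase III structured RNAs described here are 7SK (Rn7sk), the 7SL copies Rn7s1 and Rn7s2, the RNase P RNA (Rpph1) with its relatives Rprl1, Rprl2 and Rprl3, the RNase MRP RNA (Rmrp), a vault RNA (Vaultrc5) and the U6 small nuclear RNA (Rnu6). They were chosen by gene symbol, and the 10 symbols matched 11 of the 52197 entries of the deposited table, because Rprl1 is listed under 2 identifiers. The study precipitated RNA from nuclei of AML12 cells, a mouse hepatocyte line established from mice that carry a human TGF-alpha transgene. Cells grown in serum with an insulin, transferrin and selenium supplement and dexamethasone were crosslinked with ultraviolet light. Their sonicated nuclear lysate was shared between an antibody against SAFB (SAFB RIP, 2 libraries) and control IgG (IgG RIP, 2 libraries). SAFB, scaffold attachment factor B, binds both DNA and RNA in the nucleus, and the IgG RIP gives the background of the method. The 2 groups differ only in the antibody named in the labels. No label says that replicates came from separate cultures, so p-values measure the spread between these libraries, which may be technical.

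RNA polymerase III makes short noncoding RNAs that fold tightly and work inside protein complexes. 7SK holds the elongation kinase P-TEFb inactive together with HEXIM and LARP7. 7SL is the scaffold of the signal recognition particle, which brings ribosomes to the endoplasmic reticulum. RNase P trims the leader of precursor tRNAs, RNase MRP cuts precursor ribosomal RNA, vault RNAs sit in large cytoplasmic vault particles, and U6 forms part of the catalytic centre of the spliceosome.

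Sequences of 3 members are given 5′ to 3′ in DNA letters, as GENCODE release M21 lists the transcripts on mm10. Rn7sk (chr9:78175303-78175633, minus strand) is shown as the highest single entry among the members, by the first 300 of its 331 bases. It holds the purine pentamer GAAGA, set in capitals, once, at bases 142 to 146.
Rn7sk: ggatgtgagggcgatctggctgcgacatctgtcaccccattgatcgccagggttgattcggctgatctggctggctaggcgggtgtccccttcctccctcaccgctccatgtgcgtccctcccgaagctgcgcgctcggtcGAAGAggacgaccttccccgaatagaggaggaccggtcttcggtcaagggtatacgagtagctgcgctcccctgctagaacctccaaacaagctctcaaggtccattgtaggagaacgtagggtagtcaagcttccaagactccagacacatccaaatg
Of all annotated transcripts at least as long, 55.7% hold GAAGA in their first 331 bases. On the opposite strand (letters TCTTC) Rn7sk holds 1 as well. The other members are not compared for these letters. A match of these letters is a description and not a binding site.

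Rmrp (chr4:43492788-43493058, minus strand) is shown, without capitals, as a member whose fall lay between those of 7SK and Rpph1.
Rmrp: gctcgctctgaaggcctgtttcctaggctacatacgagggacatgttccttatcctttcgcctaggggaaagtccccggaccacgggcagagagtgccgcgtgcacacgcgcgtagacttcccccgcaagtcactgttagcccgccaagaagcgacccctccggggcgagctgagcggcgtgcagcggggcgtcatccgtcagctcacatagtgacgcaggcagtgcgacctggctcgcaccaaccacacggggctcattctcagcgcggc
The 7SL copies Rn7s1 (chr12:69159295-69159594, plus strand) and Rn7s2 (chr12:69361182-69361481, minus strand) are kept apart in the table although their annotated transcripts are identical over 300 bases. Rnu6 lies at chr17:13432033-13432139 on the minus strand, outside other genes.

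Rprl3 (chr8:3803069-3803358, minus strand) stands for the RNase P-like genes. By blastn its first 236 bases align with Rpph1 at 86.0% identity, and the capitals mark the last 54 bases, which do not align.
Rprl3: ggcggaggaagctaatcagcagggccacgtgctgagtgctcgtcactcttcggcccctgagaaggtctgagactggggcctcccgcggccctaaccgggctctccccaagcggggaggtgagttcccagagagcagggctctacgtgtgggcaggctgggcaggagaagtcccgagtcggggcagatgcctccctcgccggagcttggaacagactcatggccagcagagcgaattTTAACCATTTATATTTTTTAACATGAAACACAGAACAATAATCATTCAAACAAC
Rprl1 and Rprl2 also align with Rpph1 up to base 236, and the 3 RNase P-like transcripts are 90.3% to 92.1% identical to each other. The members with values differ in length from 107 bases (Rnu6) to 331 (Rn7sk) and in GC content from 45.8% (Rnu6) to 67.1% (Rpph1).

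Values are TPM, shares of each library that are scaled to transcript length and to the same total, so levels of different RNAs can be compared within a library. The read depth behind them is unknown. The markers were those of the labelled hepatocyte line for the most part. Of 13 hepatocyte markers, 11 stood at 1 TPM or more in all 4 libraries, among them Alb, Ttr, Trf and Hnf4a, while Apoa2 was listed at 0 throughout. Endothelial and stellate markers (3 each) stayed under 1 TPM in every library. Of 3 macrophage and leukocyte markers Cd68 alone was above 1 TPM, with Adgre1 at 0 in all libraries. Of 3 cholangiocyte markers Krt7 and Krt19 were high and Epcam was under 1 TPM, and the 3 summed to 1211 and 852 TPM in the IgG RIP and 831 and 863 in the SAFB RIP. Their part in the results was not tested.

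The abundant members made up a large part of the IgG RIP and a small part of the SAFB RIP. Together the 10 RNAs took 6.41% and 7.73% of the TPM in the IgG libraries and 1.21% and 1.48% in the SAFB libraries, which do not overlap. The means were 7.07% ± 0.931 (SD, n = 2) and 1.34% ± 0.191, or 5.26 times more in the IgG RIP. 7SK fell the least of the abundant members: without it the other members held 3.92% ± 1.46 of the IgG RIP and 0.29% ± 0.10 of the SAFB RIP, 13.5 times less. With 2 libraries a group an exact two-sided permutation test cannot go below p = 0.33, so these shares are given as values. They are shares of the RNA recovered with each antibody from bulk lysate, and shares do not give the amount of RNA recovered.

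**Figure D1:**
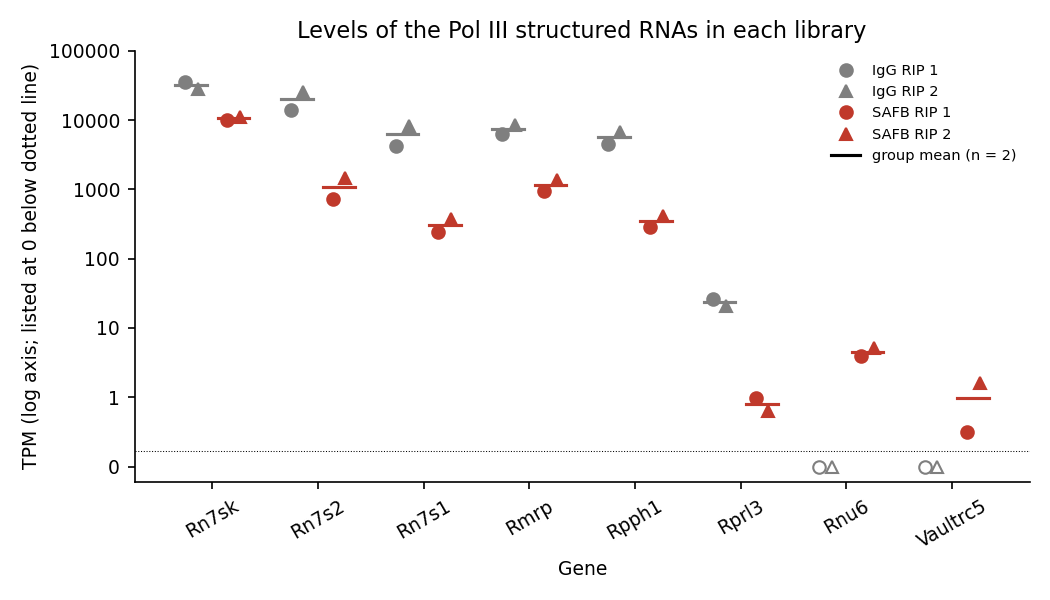
TPM (log axis) of the 8 members with any value above 0, by library, with grey symbols for the IgG RIP, red symbols for the SAFB RIP and bars for group means; open symbols below the dotted line are listed at 0. From Rn7sk to Rprl3 both SAFB libraries lie below both IgG libraries, while Rnu6 and Vaultrc5 have values in the SAFB libraries alone.

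Of the 11 entries, 3 (both identifiers of Rprl1, and Rprl2) were listed at 0 in every library and 8 had a value. Genes were tested when they reached 1 TPM in at least 2 of the 4 libraries, which 7 members did. In limma, with Benjamini-Hochberg adjustment over all 16647 genes tested and a threshold of 0.05, 6 members fell in the SAFB RIP and 1 rose. Of these, Rprl3 entered the test through the IgG libraries alone and Rnu6 through the SAFB libraries alone, so the filter set their directions. The other 5 were above 200 TPM in every library. Among them Rn7s1 and Rn7s2, whose annotated transcripts are identical, are counted apart, and 5 members fell when these copies were summed. Over all genes tested 8.3% fell and 29.8% rose, and the median log2 fold change was 0.46. The groups did not overlap for the 7 tested members, 6 with the SAFB libraries below and 1 above. Over all genes tested the groups were apart in that way for 21.4% below and 52.3% above. After each library was centred on its median the same counts of 6 and 1 held, against 17.6% lower and 16.4% higher over all genes.

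Rn7sk was the highest single entry among the members in every library, although the 7SL copies together exceeded it in IgG RIP replicate 2. Rn7sk stood at 35246 and 27812 TPM in the IgG RIP and at 9887 and 11174 TPM in the SAFB RIP. The SAFB libraries were close to each other and both well below the lower IgG library. Its mean went from 31529 ± 5256 to 10530 ± 910.3 TPM (SD, n = 2), 2.99 times less. Its log2 fold change on the log2(TPM + 1) scale was -1.57 ± 0.29 (SE; limma, Benjamini-Hochberg adjusted p = 0.0195), and -2.03 ± 0.36 after median centring. By rank, 7SK was the third entry of both IgG libraries (rank 3) and the second of both SAFB libraries (rank 2), behind Malat1, at 50824 and 45759 TPM there. AY036118 and Gm26917, treated here as ribosomal DNA fragment entries, stood above it only in the IgG RIP, at means of 115658 and 49568 TPM against 6821 and 5536 TPM in the SAFB RIP. Quantile normalization compares ranks, and under it Rn7sk stood higher in the SAFB RIP, at 0.63 ± 0.17 (limma, Benjamini-Hochberg adjusted p = 0.0428). That value is the step from rank 3 to rank 2. Both libraries of a group share the rank and so the normalized value. The SE and p therefore rest on the variance that limma takes from other genes and not on replicates of Rn7sk. Without a filter on low values its fall did not pass (adjusted p = 0.0616).

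A further entry, Gm23037, matched 7SK at 89.2% identity over its whole length. It was at 2.97 and 3.20 TPM in the IgG RIP and 1.24 and 1.22 TPM in the SAFB RIP, apart in the same direction as Rn7sk, and did not pass (log2 fold change -0.87 ± 0.29; limma, Benjamini-Hochberg adjusted p = 0.0765). The genes on either side of Rn7sk carried little signal. Ick, 3195 bases away, lay between 5.99 and 20.9 TPM in the 4 libraries and did not pass, and C920006O11Rik, 280 bases away, reached at most 1.16 TPM.

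With TPM as deposited, the 7SL copies had the most negative fold changes of the abundant members, though Rpph1, at -3.99 ± 0.29 (SE), was close. The order was not tested. After quantile normalization Rn7s2 stood at -3.41 and Rpph1 at -3.97. Rn7s2 was at 13876 and 25797 TPM in the IgG RIP and at 721 and 1441 TPM in the SAFB RIP. Rn7s1 was at 4275 and 8291 TPM in the IgG RIP and at 239 and 367 TPM in the SAFB RIP. For both copies even the higher SAFB library lay far under the lower IgG library, although the libraries of each group differed among themselves more than those of 7SK did. The log2 fold changes were -4.32 ± 0.39 for Rn7s1 and -4.21 ± 0.47 for Rn7s2 (SE; limma, Benjamini-Hochberg adjusted p = 0.00577 and 0.00759). In the order of all genes from the most negative fold change upwards they held places 4 and 6.

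Although the letters of the copies are identical, Rn7s2 was given 3.25 and 3.11 times the TPM of Rn7s1 in the IgG libraries and 3.01 and 3.92 times in the SAFB libraries, ranges that overlap. How reads were divided between the copies is not given in the sources used here, so each copy is uncertain as a single gene. Added up before the fit, the copies fell by 4.24 ± 0.46 on the log2 scale (limma, Benjamini-Hochberg adjusted p = 0.00725). Of the 2 other entries that matched 7SL by sequence, Gm24105 (91.7% identity) and Gm22876 (84.1%), both were listed at 0 in every library.

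The annotation also places 4 predicted microRNA entries inside the 7SL copies. One of them, AC157822.1, overlaps 77 bases of Rn7s2 on the same strand and was listed at 16167 TPM in IgG RIP replicate 2, against 0.953 TPM in IgG RIP replicate 1 and 0.361 and 0.677 TPM in the SAFB RIP. The other entries, AC157822.2, AC099934.1 and AC099934.2, lay between 0.376 and 1.43 TPM in all libraries. It was high in 1 of the 4 libraries, and how reads over Rn7s2 were assigned between the entries cannot be checked from TPM. The 6 entries were also summed, an alternative chosen after seeing the data, to 18156 and 50258 TPM in the IgG RIP and 962 and 1811 TPM in the SAFB RIP. That sum fell by 4.52 ± 0.60 on the log2 scale (limma, Benjamini-Hochberg adjusted p = 0.01). The nearest gene to Rn7s1, the ribosomal protein gene Rps29, 108 bases away on the other strand, did not pass at -0.36. Nemf, 4016 bases from Rn7s2 on its strand, rose by 1.47 on the log2 scale and did not pass after median centring.

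The RNA of RNase P fell as well. Rpph1 (chr14:50807449-50807767, minus strand) was at 4476 and 6796 TPM in the IgG RIP and at 288 and 417 TPM in the SAFB RIP. All SAFB values were less than any IgG value, and the means of 5636 ± 1641 and 353 ± 91.1 TPM (SD, n = 2) differ 15.98 times. The log2 fold change was -3.99 ± 0.29 (SE; limma, Benjamini-Hochberg adjusted p = 0.00468), place 11 from the bottom among all genes. Rpph1 overlaps Ccnb1ip1 over 284 bases on the same strand, but Ccnb1ip1 was listed at 0 in every library. Parp2, the gene of a poly(ADP-ribose) polymerase that lies 73 bases away on the other strand, rose by 1.003 on the log2 scale and did not pass after median centring.

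Rprl3, the only RNase P-like gene with signal, fell too, at a level 173 to 660 times under that of Rpph1. It was at 25.9 and 20.9 TPM in the IgG RIP and at 0.974 and 0.632 TPM in the SAFB RIP, with no overlap. Its log2 fold change was -3.76 ± 0.34 (limma, Benjamini-Hochberg adjusted p = 0.00577), but this low gene moved from -1.62 with a pseudocount of 10 to -4.72 with one of 0.1. Both SAFB values were under 1 TPM, so Rprl3 entered the test through the IgG libraries alone and its direction was set by the filter. It was not tested when either IgG library was left out. Rprl3 shares much of its sequence with Rpph1, so its own level is uncertain. Its nearest neighbours, Gm24934 and Gm7381, lie 21938 and 38737 bases away and were listed at 0.

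RNase MRP RNA, a relative of RNase P RNA, fell less. Rmrp was at 6207 and 8550 TPM in the IgG RIP and at 931 and 1371 TPM in the SAFB RIP. The groups were apart, with means of 7378 ± 1657 and 1151 ± 311 TPM (SD, n = 2) that differ 6.41 times. Its log2 fold change was -2.69 ± 0.27 (SE; limma, Benjamini-Hochberg adjusted p = 0.00651), and 37 genes had a more negative one. Ccdc107 overlaps it on the opposite strand over 159 bases. That gene lay between 59.5 and 83.9 TPM in the 4 libraries and did not pass at -0.07, and Arhgef39, 3083 bases away, did not pass at 0.03.

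**Figure D2:**
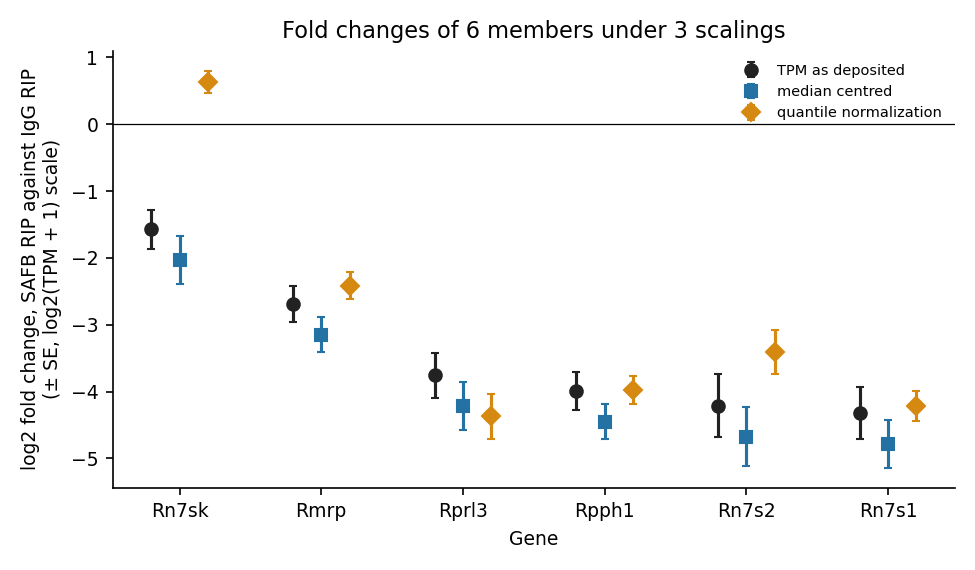
Log2 fold change (± SE, log2(TPM + 1) scale) of the 6 members that fell, with TPM as deposited, after median centring and after quantile normalization. Rmrp, Rprl3, Rpph1, Rn7s2 and Rn7s1 lie below 0 under all 3 scalings, whereas Rn7sk lies at -1.57 and -2.03 under the first pair and at 0.63 after quantile normalization. The SE of that last value holds no spread between replicates of Rn7sk, which share a rank within each group.

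Ratios between members within a library are the same under any scaling of that library. Those of Rn7sk to Rpph1, Rmrp and both 7SL copies separated the groups. The ratio of Rn7sk to Rpph1 was 7.88 and 4.09 in the IgG libraries and 34.3 and 26.8 in the SAFB libraries. That of Rn7sk to Rn7s2 went from 2.54 and 1.08 to 13.7 and 7.76, and that of Rn7sk to Rmrp from 5.68 and 3.25 to 10.6 and 8.15. In each of these ratios the lower SAFB library exceeded the higher IgG library. The ratio of Rmrp to Rpph1 was apart too, at 1.39 and 1.26 in the IgG RIP against 3.23 and 3.29 in the SAFB RIP. Its mean shift was 1.30 on the log2 scale, beside 1.11 for Rn7sk to Rmrp, so 7SK was not alone in standing apart. The ratio of Rpph1 to Rn7s2 did not separate the groups, at 0.323 and 0.263 against 0.400 and 0.29. In all, 8 ratios were compared. The exact permutation p was 0.33 for the 5 that separated the groups, the smallest these libraries allow, and 0.667 to 1 for the other 3. 7SK made up 55.0% and 36.0% of the members' TPM in the IgG libraries and 81.9% and 75.6% in the SAFB libraries, while 7SL went from 28.3% and 44.1% to 7.96% and 12.2%.

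**Figure D3:**
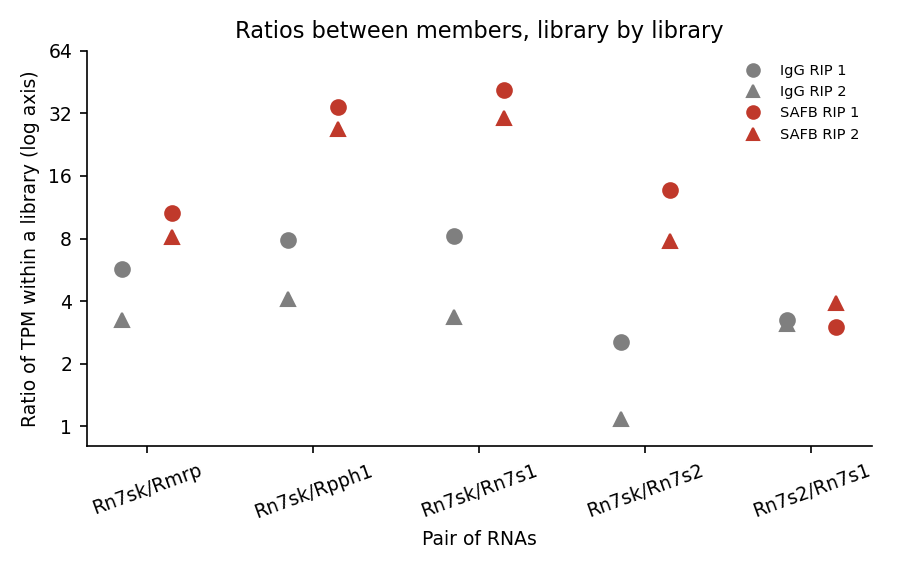
Ratio of the TPM of 2 RNAs within a library (log axis) for 5 pairs, with grey symbols for the IgG RIP and red symbols for the SAFB RIP. In the 4 pairs with Rn7sk on top the SAFB symbols lie above the IgG symbols, and in Rn7s2/Rn7s1 the groups overlap between 3.01 and 3.92.

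U6 went the other way at a low level. Rnu6 was listed at 0 in both IgG libraries and at 3.91 and 5.11 TPM in the SAFB libraries, 4.51 ± 0.849 TPM (SD, n = 2), and it rose (limma, Benjamini-Hochberg adjusted p = 0.00816). No fold change is given against a group at 0. Rnu6 entered the test through the SAFB libraries alone, so its direction was set by the filter, and it was not tested when either SAFB library was left out. Vaultrc5, the vault RNA gene (chromosome 18, 36801866 to 36802008, plus strand), had a similar shape below the filter. It was listed at 0 in both IgG libraries and at 0.311 and 1.61 TPM in the SAFB libraries, and without the filter it did not pass (limma, Benjamini-Hochberg adjusted p = 0.176). Its neighbour Zmat2, 2199 bases away on its strand, went from 20.2 and 17.9 to 33.9 and 34.7 TPM and rose as deposited, by 0.82 on the log2 scale. Zmat2 did not pass after median centring.

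U6 is a multicopy RNA, and its reads can be listed under many names. In all, 538 other short entries matched Rnu6 on the RNA strand with at least 80% identity over at least 80% of its length, 42 of them letter for letter. Most (458) were listed at 0 throughout, also 40 of the 42 exact copies. Summed, the 538 entries held 243 and 235 TPM in the IgG RIP and 706 and 649.7 TPM in the SAFB RIP, with the SAFB libraries well above. Of the 49 tested, 17 rose and 0 fell in limma, which is 34.7% against 29.8% of all genes. At the threshold after median centring 11 rose and 0 fell. Among the 17 that rose, 11 had no value above 0 in the IgG RIP and so entered through the SAFB libraries alone. Gm23864, Gm24630, Gm22887, Gm23138 and Gm25322 were under 1 TPM in an IgG library, so they also needed the SAFB libraries to pass the filter. Gm24162 alone reached 1 TPM in both IgG libraries. The median log2 fold change of the 49 was 1.19, beside 0.46 over all genes. It was 0.85 over other genes with a longest transcript of 100 to 350 bases and 1.02 over other snRNAs, sets that include U6-like entries. Low entries that passed the filter through the SAFB libraries alone raise the median of the 49, so no shift of the set is read from it.

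The 3 copies with the highest mean TPM are diverged ones. Gm24162 (87.9% identity to Rnu6) was at 5.80 and 9.44 TPM in the IgG RIP and at 207 and 193 TPM in the SAFB RIP, a log2 fold change of 4.57 ± 0.25 (SE; limma, Benjamini-Hochberg adjusted p = 0.00378). Gm22107 (81.3%) did not separate the groups, at 66.0 and 44.6 against 44.5 and 61.1 TPM. Gm23864 (83.2%) was at 2.70 and 0 TPM in the IgG RIP and at 90.3 and 63.0 TPM in the SAFB RIP, and rose. The 208 entries of at least 95% identity together held 17.8 and 47.5 TPM in the IgG RIP and 71.7 and 68.7 TPM in the SAFB RIP. Those of 80% to 90% identity held 159 and 127 TPM against 557 and 490 TPM.

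Most U6-like entries with signal sit inside other genes. Of the 49 tested, 39 lay in a gene on the same strand, 7 in a gene on the opposite strand only and 3 outside other genes, and 13, 3 and 1 of these rose. Reads of an intron can be listed under an entry inside it, so the host genes are given beside them. Of the 39 hosts, 18 rose. Of the 13 same-strand entries that rose, 3 had a host that rose, 9 one that did not pass and 1 (Gm23864, in Ddr1) one that fell. Gm24162 lies in Pkhd1, the fibrocystin gene, which did not pass at 0.13. The part of host transcripts in the values of these entries was not tested.

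**Figure D4:**
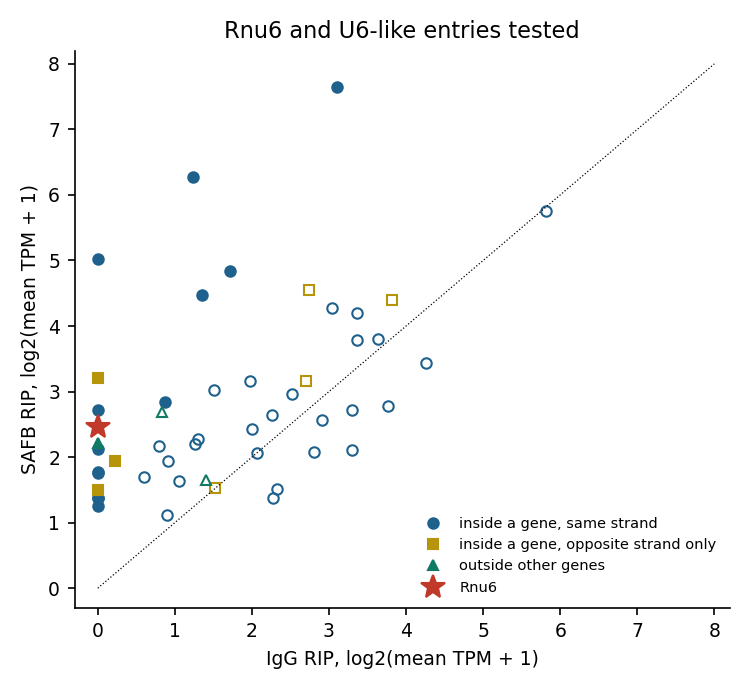
Mean TPM of the 49 U6-like entries tested in the SAFB RIP against the IgG RIP, as log2(mean TPM + 1), with symbols for their position relative to other genes, filled where the entry rose; the star is Rnu6 and the dotted line marks equal levels. Entries that rose include 11 at 0 on the IgG axis, and none fell.

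A fixed list of other RNA polymerase III RNAs matched only 4 entries, and these gave no values. The Y RNAs Rny1 and Rny3 and 2 tRNA genes were in the table and listed at 0 in all libraries. Beside them, a list of capped small nuclear RNAs and U3 copies, with the small nucleolar RNA Rnu73b, matched 20 entries. Of its 9 tested entries 4 fell and 0 rose, with a median of -1.92, and all 4 were U3 copies. Rnu1a1, a U1 gene, was at 6.06 and 3.47 TPM in the IgG RIP and 5.79 and 7.77 TPM in the SAFB RIP, which overlap. The difference between these RNAs and the polymerase III RNAs was not tested.

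Genes of like size or abundance were counted for comparison. Among 802 other genes whose longest transcript has 100 to 350 bases, 5.74% fell and 31.9% rose, beside 8.3% and 29.8% of all genes. Among 39 other genes with a mean of at least 1000 TPM, 20.5% fell and 35.9% rose, with a median of 0.22. By annotated class, 20.8% of 24 scaRNAs fell and 20.8% rose, 9.59% of 271 snoRNAs fell and 14.8% rose, 5.41% of 74 other genes annotated as misc_RNA fell and 24.3% rose, and 1.29% of 155 snRNAs fell and 29.7% rose. Deep falls also occurred outside the members. A log2 fold change below -2 was found for 31 of the 802 short genes, 20 of the snoRNAs and 3 of the scaRNAs. The lowest values there were -5.28, -5.34 and -3.96. It was also found for 3 of the 39 abundant genes, 3 of the misc_RNA genes and 2 of the snRNAs. These sets overlap and were chosen after the data had been seen.

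The genes whose levels followed 7SK most closely across the 4 libraries, by Euclidean distance between centred log2(TPM + 1) profiles, were Scarna9 (0.11), Tpst2 (0.13), Scamp2 (0.14), Stab1 (0.14) and Hist1h4k (0.15). Scarna9, for a Cajal body RNA, was at 44.8 and 33.4 TPM in the IgG RIP and 11.0 and 12.1 TPM in the SAFB RIP. The 5 nearest to Rnu6 were Btbd8, Haspin, Spaar, AC153949.1 and AC163623.3, at distances of 0.11 to 0.13. The distances rest on 4 libraries in 2 groups.

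Transcripts of the proteins that work with these RNAs were mixed. Of 7 genes of the 7SK particle and P-TEFb, 3 rose, 0 fell and 4 did not pass, with a median log2 fold change of 0.38 beside 0.46 over all genes. Larp7, whose protein holds the 3′ end of 7SK, was at 2.59 and 5.35 TPM in the IgG RIP and at 41.4 and 33.9 TPM in the SAFB RIP. It rose by 3.01 ± 0.38 on the log2 scale (limma, Benjamini-Hochberg adjusted p = 0.00928), in the opposite direction to Rn7sk. Ccnt2 (cyclin T2) rose by 1.01 and Hexim1, the P-TEFb inhibitor, by 0.58, and neither passed after median centring. Cdk9, the kinase of P-TEFb, did not pass at -0.49, and Ccnt1 did not at -0.11, but both were lower after median centring, where 1 of the 7 was higher and 2 were lower.

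Of 9 tested entries for the signal recognition particle and its receptor, 5 rose, 0 fell and 4 did not pass (median 0.86). Srp72 went from 96.6 and 76.9 to 186 and 166 TPM and rose by 1.02 ± 0.15 (SE), and Srp14, whose protein binds the Alu part of 7SL, rose by 1.22 ± 0.26. Srpr, for a receptor subunit, rose by 0.86, and Srp68 did not pass at -0.28. After median centring 1 of the 9 was higher (Srp54b) and 3 were lower. For RNase P and MRP, 2 of 11 protein genes rose (Pop4 at 1.19 ± 0.16 and Rpp38 at 2.49 ± 0.62) and 1 fell (Rpp25l at -1.10 ± 0.24), with a median of 0.04. Pop1 (0.35), Rpp21 (-0.34) and Rpp14 (-1.30) did not pass. After median centring 1 of the 11, Pop4, was higher and 5 were lower, among them Rpp21 and Rpp14, and Rpp38 did not pass.

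For the vault, Mvp, the major vault protein gene, was at 153 and 147 against 142 and 158 TPM and did not pass. Parp4 rose by 0.84 ± 0.13 and Tep1 fell by 0.55 ± 0.14 on the log2 scale. After median centring 0 of the 3 were higher and 2 were lower, Mvp and Tep1. For the U6 particle and U6 maturation, 3 of 16 genes rose, 2 fell and 11 did not pass (median 0.16). Ssb, for the La protein that holds the oligo(U) end of new polymerase III transcripts, went from 19.2 and 17.7 to 78.2 and 65.01 TPM, and rose by 1.90 ± 0.17 (limma, Benjamini-Hochberg adjusted p = 0.00577). Tut1, a terminal uridylyltransferase that acts on U6, rose by 0.80 ± 0.13, and Prpf31 by 0.79 ± 0.19. Lsm8, of the ring that caps the 3′ end of U6, fell by 1.80 ± 0.29 and Lsm4 by 0.76 ± 0.18. After median centring 1 of the 16, Ssb, was higher and 3 were lower, and neither Tut1 nor Prpf31 passed.

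Of 28 genes of the polymerase III machinery, 6 rose, 1 fell and 21 did not pass, with a median of 0.11, and after median centring 2 were higher and 7 lower. Bdp1, a TFIIIB subunit gene, went from 9.01 and 15.9 to 78.7 and 76.4 TPM, and rose by 2.59 ± 0.30 (limma, Benjamini-Hochberg adjusted p = 0.0078). Snapc5, of the complex that binds the promoters of U6 and 7SK genes, rose by 1.89 ± 0.31. Maf1, the repressor of polymerase III, fell by 0.75 ± 0.13. The most abundant of the list, Gtf3c1, did not pass at -0.06, nor did Brf1 at 0.21. Outside the genes of highest mean level, Larp7, Srp54b, Rpp38, Rpp25l, Ssb, Lsm8, Lsm4, Bdp1, Snapc5 and Maf1 were named after their values had been seen. The lists are described by their counts, beside 29.8% higher and 8.3% lower over all genes.

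**Figure D5:**
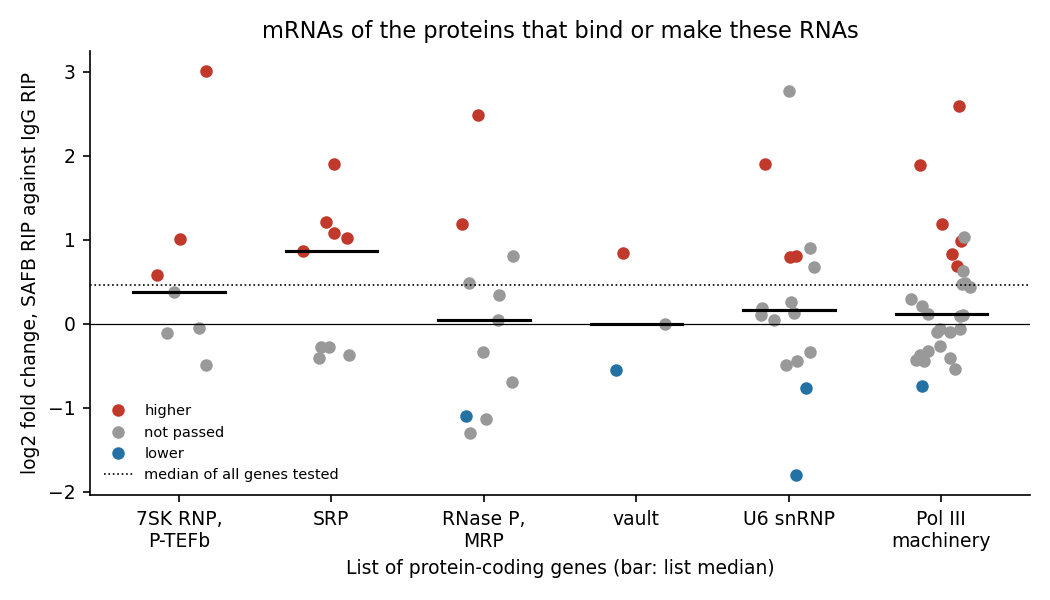
Log2 fold change (SAFB RIP against IgG RIP) of each tested gene in 6 lists of protein-coding genes, coloured by call, with a bar at each list's median and a dotted line at the median of all genes tested, 0.46. The list medians lie between -0.00 and 0.86, and Larp7, at 3.01, is the highest point.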

How the data were processed

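Ultraviolet-crosslinked SAFB and IgG precipitates from AML12 nuclei were treated with DNase, and stranded libraries were made after ribosomal RNA removal, per the labels' protocols. The authors deposited 1 table of TPM values. HISAT2, HTSeq, DESeq2, StringTie and mm10 are named in the submitters' processing notes. Which of them gave the TPM, with which annotation and strand setting, is not given in the sources used here. Short RNAs are counted over few positions, so their TPM depends on how short transcripts were assigned.

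Entries that share an identifier (14 of 52197) were summed. Genes that reached 1 TPM in 2 or more of the 4 libraries were tested by limma 3.58.1 in R 4.3.3 on log2(TPM + 1), with a variance trend, two-sided, and adjusted by Benjamini-Hochberg. The procedure was tested on simulated data. Copies were found with blastn 2.17.0 in GENCODE M21 transcripts and counted under the member they matched best. Named were all members, up to 4 genes with the highest mean TPM of each list, overlapping or neighbouring genes, the 3 short U6-like copies with the highest mean TPM, and the 5 nearest profiles of Rn7sk and Rnu6. Predicted symbols were left out of the nearest profiles. Members and lists were chosen with earlier results of these data known. TPM gives no read depth, so no counting interval is given. Some sequences are not reported here.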

Additional observations from a re-analysis of the deposited data

How the results depend on the processing

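In all, 17 alternatives were run, 1 of them (7SL with the entries inside it) added after the data had been seen. The falls of Rmrp, Rpph1, Rn7s1 and Rn7s2 kept their direction and their call under every alternative that tested them, between -2.41 and -4.80. Rprl3 stayed lower too, from -1.62 with a pseudocount of 10 to -4.72 with one of 0.1. It passed the main filter through the IgG libraries alone, which set its direction, so its fall adds no support. Rn7s2 was at -3.41 after quantile normalization. Rn7sk reversed there, at 0.63, where 2 members rose. That setting left no spread between replicates of Rn7sk, because they share a rank within each group. Without a filter on low values the call of Rn7sk was lost (limma, Benjamini-Hochberg adjusted p = 0.0616). Leaving out 1 library, where the lone library of its group is assumed to vary like the others, left 0 to 1 members higher (0 without either SAFB library) and 5 to 6 lower (5 without either IgG library, where Rprl3 was not tested), and with a mean filter of 5 TPM 0 rose, since Rnu6 was then not tested. The members' share, 5.73 percentage points lower in the SAFB RIP, was 7.12 points lower without the ribosomal DNA fragment entries and 8.81 against protein-coding TPM, which shrinks the denominator. Over all genes, 1382 fell and 4964 rose. The counts were 2935 and 2736 after median centring, and 2986 and 2758 after quantile normalization. Against protein-coding TPM 2226 fell. Without IgG RIP replicate 1 2325 fell, and without IgG RIP replicate 2 2631 fell and 7781 rose. Without SAFB RIP replicate 1 the counts were 571 and 2034, and without SAFB RIP replicate 2 798 and 2282; the cause was not tested. The labels do not say that equal replicate numbers share a lysate, and across all genes tested same-numbered libraries did not deviate together (r = -0.02). Among the abundant members, however, Rn7s1, Rn7s2, Rmrp and Rpph1 were higher in replicate 2 of both groups. Rn7sk was higher in replicate 1 of the IgG RIP and in replicate 2 of the SAFB RIP. With a replicate block, which leaves 1 residual degree of freedom, 6 members fell and 1 rose, so the block changed no member's call. The block moved the SE of Rn7s2 from 0.47 to 0.21 and that of Rn7sk from 0.29 to 0.36 (limma, Benjamini-Hochberg adjusted p = 0.000166 and 0.0164 with the block). Unknown depth limits what can be said of Rprl3, Vaultrc5 and Rnu6.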
